A study of Mus musculus with 6 samples.

Results

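The ligands of the tumour necrosis factor (TNF) superfamily were examined in regulatory T cells (Tregs) of neonatal skin and of the skin-draining lymph node (SDLN). The rule named 10 genes, Tnfsf9, Tnfsf8, Tnfsf10, Tnfsf11, Tnfsf14, Tnf, Lta, Ltb, Cd40lg and Fasl, and asked for the members of the family, so the remaining 8, Tnfsf4, Tnfsf12, Tnfsf13, Tnfsf13b, Tnfsf15, Tnfsf18, Cd70 and Eda, were taken with them. These 18 genes stood among 49315 in the count table, and each was found by the symbol of its Ensembl identifier. The study asked which signals skin Tregs could send to the hair follicle, and sequenced RNA of 3 pooled samples of sorted skin Tregs and 3 of sorted SDLN Tregs. Both groups came from 9-day-old mice labelled Foxp3-GFP, of a C57BL/6J background and of both sexes, with no treatment given in the sources used here, in 1 batch, and each sample pooled 3 biological replicates before the sort. The sort took DAPI- CD45+ CD4+ Foxp3-EGFP+ cells, so the reporter was the means of calling a cell a Treg in both tissues. The libraries are lettered A to C within each group, and p-values measure the spread between these pools.

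TNF superfamily ligands are mostly membrane proteins that act as trimers on receptors of the TNF receptor superfamily, and several are also shed as soluble cytokines by proteases. T cells use them to help B cells, to organise lymph nodes, to kill target cells and to pass costimulatory signals to and from antigen-presenting cells. Receptor engagement recruits TRAF adaptors and feeds the NF-kB pathway, whose feedback inhibitors end the signal.

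Library totals ran from 3748669 to 11741784 counts in skin and from 47243498 to 116158706 in SDLN, and a floor of 3 counts therefore stood at 0.255 to 0.800 counts per 1000000 of the library total (CPM) in skin and 0.0258 to 0.0635 CPM in SDLN. Skin libraries held 2911 to 5902 genes over that floor against 17584 to 19318 in SDLN. Foxp3, the gene that carries the sorting reporter, was at 0, 28.1 and 0.11 CPM in skin A, B and C, and SDLN A, B and C had 105, 139 and 37.8 CPM. Of 7 T cell genes, Cd2, Cd3d, Cd3g and Lck were over the floor in every skin library, and the list summed to 2970 to 4231 CPM in skin and 6865 to 8451 CPM in SDLN. Cd4, which the sort also used, had 0, 1861 and 2 counts in skin A, B and C, and Cd3e, a chain of the T cell receptor complex, had 0, 1757 and 2646. Skin libraries thus held no count of genes that another skin library held at over 1000 counts, so the floor and the folds computed from it cover counting error only, and a count of 0 in skin does not limit the level to the floor. The remaining 5 of 6 Treg genes were over the floor in every skin library. Together the Treg genes summed to 4907 to 7097 CPM in skin and 3747 to 4943 CPM in SDLN. Markers of myeloid cells, a list of 15 genes with 13 over the floor in all skin libraries, summed to 33638 to 57773 CPM in skin and 694 to 984 CPM in SDLN, and among them Itgax had no count in skin A and C and Adgre1 1 count in skin C. A list of 18 genes that respond to tissue dissociation summed to 10774 to 34441 CPM in skin and 2307 to 2394 CPM in SDLN. Both lists were higher in skin beside every ligand result that follows, and their part in those results was not tested. In bulk samples, fewer cells of a type and less RNA per cell cannot be told apart.

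Skin libraries held few ligands at high counts, and SDLN libraries held most of the family, a pattern that all genes shared. Over the floor were 3, 2 and 4 of the 18 ligands in skin A, B and C, while the SDLN libraries held 12, 13 and 12. Over the whole table, 2911 to 5902 genes were over it in skin and 17584 to 19318 in SDLN. The lowest count of any ligand over the floor was 166 in skin, while SDLN held ligands down to 13 counts. Of all genes over the floor, 74.2 to 78.8% had at least 100 counts in skin and 62.8 to 72.3% in SDLN. Tnfsf9 and Ltb were the only members over the floor in all 6 libraries. Of the 18, 11 passed the filter on low counts, and edgeR's quasi-likelihood test called 1 higher in skin, where the same test called 1.04% of the 13572 genes tested, and 6 higher in SDLN, where it called 45.3%. Of those 6, 5 had no count in any skin library, and 94.4% of all genes called higher in SDLN were likewise at the floor in all skin libraries. The median log2 fold change of the 11 was -8.66, or -2.58 with genes at the floor set to their bound, against -2.21 and -1.29 over all genes tested. The groups did not overlap for 1 ligand with skin above, where the share of all genes was 2.39%, and for 7 with SDLN above, where it was 53.6%.

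**Figure D1:**
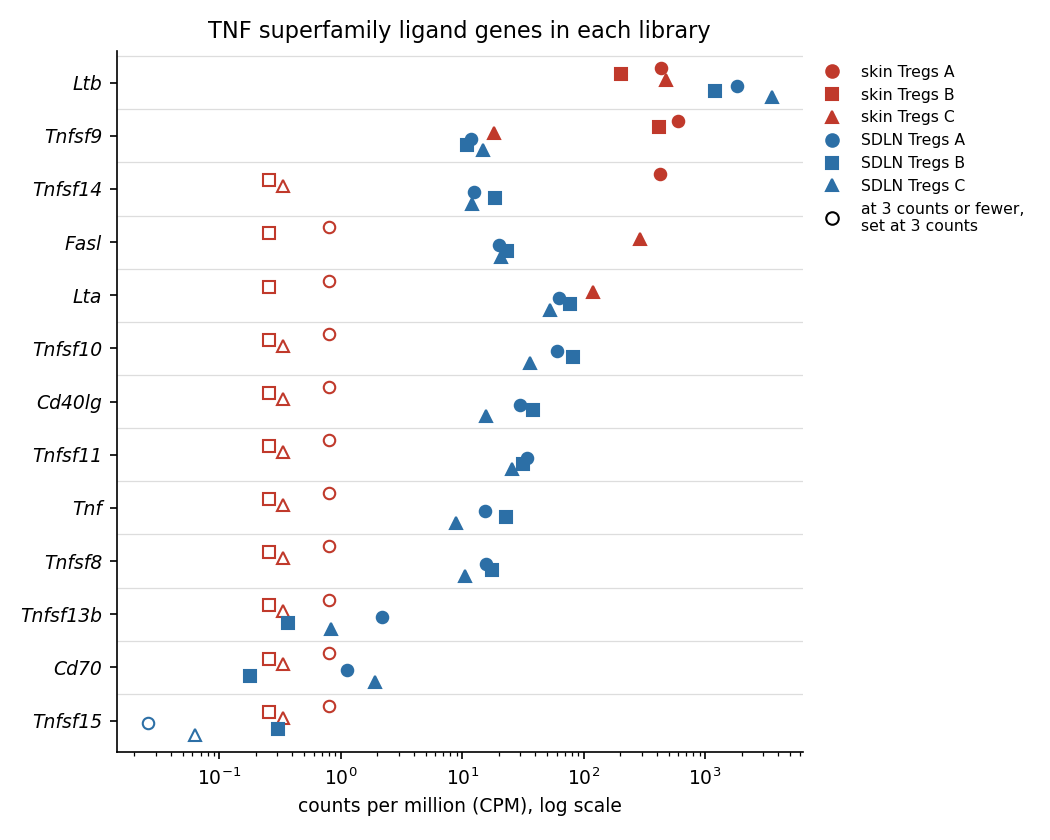
Level of each ligand over the floor in at least 1 library, in CPM on a log axis, with 1 point per library, skin in red and SDLN in blue, and open symbols set at 3 counts for libraries with 3 counts or fewer. The 3 skin points of Tnfsf9, 18.4 to 593 CPM, lie above its SDLN points, and the skin points of Ltb lie below.

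Tnfsf9 encodes the ligand of the costimulatory receptor 4-1BB, and antigen-presenting cells are its best known source. The gene lies on chromosome 17, from 57105325 to 57107757 on the plus strand (GRCm38). Skin A, B and C held it at 593, 419 and 18.4 CPM, whereas SDLN A, B and C held it at 11.7, 10.9 and 14.9 CPM. All 3 skin libraries were above all 3 SDLN libraries, but skin C, with 166 counts, lay close to the SDLN range while A and B lay far above it. The counting intervals of skin C, 15.7 to 21.4 CPM, and SDLN C, 13.8 to 16.04 CPM, met at their ends (exact Poisson, 95%), and such intervals cover counting error only since the reads carry no molecular identifiers. Skin averaged 344 ± 295 CPM, a spread nearly as large as the mean, and SDLN averaged 12.5 ± 2.10 CPM (SD, n = 3 each). The log2 fold change was 4.53 (SE 1.39, adjusted p = 0.0400, edgeR), and relative to the median of all genes it was 6.74.

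The direction of Tnfsf9 was the same in all 17 alternatives, and the call was made in 8 of them. Its adjusted p ranged from 0.000107 to 0.153. Leaving out skin A, skin B, SDLN A, SDLN B or SDLN C ended it (adjusted p = 0.071, 0.0723, 0.153, 0.145 and 0.129), whereas leaving out skin C kept it (log2 fold change 4.99, adjusted p = 0.00493). Skin B, the skin library with Foxp3 well over the floor, held Tnfsf9 at 419 CPM, and that library alone against SDLN gave a log2 fold change of 5.10, in a fit whose spread came from the SDLN libraries. The study names this ligand gene in its text and the receptor gene Tnfrsf9 in a figure legend, both from the same libraries, so neither value is independent evidence. Within skin, the summed dissociation response was 34441, 19137 and 10774 CPM and the summed myeloid markers 57773, 36397 and 33638 CPM in A, B and C, beside 593, 419 and 18.4 CPM of Tnfsf9. An antisense-strand lincRNA, Gm11110, shared 192 of its exon bases, and without strand those reads cannot be assigned to either gene. That lincRNA had 28, 59 and 0 counts in skin and 969 to 2193 in SDLN.

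Over the 6 libraries, the genes whose log2(CPM + 1) was most like that of Tnfsf9, among 1404 compared, were Hsp90aa1, Psma6, 2310010J17Rik, Entr1 and Clec4n, with Pearson r of 0.995, 0.991, 0.987, 0.984 and 0.983. These are descriptions over 6 points that share library and depth. Hsp90aa1, a heat-shock chaperone, was at 608, 556 and 239 CPM in the skin libraries and at 212 to 244 CPM in SDLN. Clec4n, which encodes the myeloid lectin Dectin-2, was at 106, 89.0 and 0.886 CPM in skin and 0.430 to 2.23 CPM in SDLN. In both, skin A and B were high and skin C lay within the SDLN range. Skin A and B were also above SDLN for Psma6, 2310010J17Rik and Entr1. There skin C lay above the SDLN range for Psma6 (196 against 157 to 184 CPM) and 2310010J17Rik (6.86 against 3.87 to 5.06 CPM). For Entr1 it lay just below that range (85.3 against 85.7 to 114 CPM).

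Ltb, Tnf and Lta encode lymphotoxin beta, TNF and lymphotoxin alpha. Lymphotoxin beta anchors lymphotoxin alpha at the membrane in a heterotrimer needed for lymph node formation, and lymphotoxin alpha alone forms a secreted trimer that binds the TNF receptors. The 3 genes are neighbours on chromosome 17, Ltb at 35194439 to 35196320 on the plus strand, Tnf at 35199381 to 35202007 and Lta at 35203165 to 35205351 on the minus strand, with 3.06 kb between Ltb and Tnf and 1.16 kb between Tnf and Lta. They lie close together yet differed in how often skin libraries held them, so their upstream sequence is shown. Each line gives the bases before every annotated start of the gene, read on the gene's strand from RefSeq promoters (GRCm38.p6), and capitals mark a match to the NF-kB motif. The Ltb line stops 68 bases short of the RefSeq start, since another start is annotated there.

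Ltb, chr17:35194257-35194438, plus strand: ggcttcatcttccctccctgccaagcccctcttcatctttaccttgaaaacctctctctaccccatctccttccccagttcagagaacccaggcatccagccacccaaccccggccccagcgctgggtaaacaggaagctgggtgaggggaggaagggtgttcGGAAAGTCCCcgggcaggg
Tnf, chr17:35202008-35202257, minus strand: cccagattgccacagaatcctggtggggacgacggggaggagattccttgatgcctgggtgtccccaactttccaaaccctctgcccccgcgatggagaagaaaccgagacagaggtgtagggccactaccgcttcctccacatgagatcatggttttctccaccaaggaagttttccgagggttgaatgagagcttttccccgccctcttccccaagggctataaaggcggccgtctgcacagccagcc
Lta, chr17:35205352-35205601, minus strand: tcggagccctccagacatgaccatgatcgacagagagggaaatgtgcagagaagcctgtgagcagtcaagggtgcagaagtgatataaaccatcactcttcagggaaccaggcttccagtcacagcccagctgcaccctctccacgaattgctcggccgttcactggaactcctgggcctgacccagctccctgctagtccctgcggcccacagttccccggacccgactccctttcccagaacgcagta

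Counted back from its RefSeq start, Ltb held an NF-kB match that begins at position -87 of the 250 bases searched on both strands, and neither Tnf nor Lta held one in its window. Among all 27025 RefSeq promoters searched over the same length, 7.01% held an NF-kB match and 6.87% a match to the AP-1 motif TGANTCA. RefSeq promoters were found for 13 of the 18 ligands, of which 1 held an NF-kB match and 2, Tnfsf14 and Tnfsf13, an AP-1 match. Only 20 of the 250 bases of Tnfsf13 lie before every annotated start, and its match, at position -133, is not among them. A match describes the letters and is not a site of binding, and no match says only that these letters are not in the window.

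Ltb was the most abundant ligand of SDLN Tregs and fell in skin. Its values in skin A, B and C were 436, 205 and 480.0 CPM, and those in SDLN A, B and C were 1842, 1197 and 3526 CPM. Every SDLN library was above every skin library, and the counts behind the skin values were 1634, 2403 and 4336. The log2 fold change was -2.58 (SE 0.640, adjusted p = 0.0185, edgeR), which lay -0.37 from the median of all genes, and it turned to 4.07 with upper quartile scaling (adjusted p = 0.286), a scaling that moved the median of all genes by 0.97. The call held in 13 of the 17 alternatives (adjusted p 0.000561 to 0.551), and leaving out skin B ended it (adjusted p = 0.0563).

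**Figure D2:**
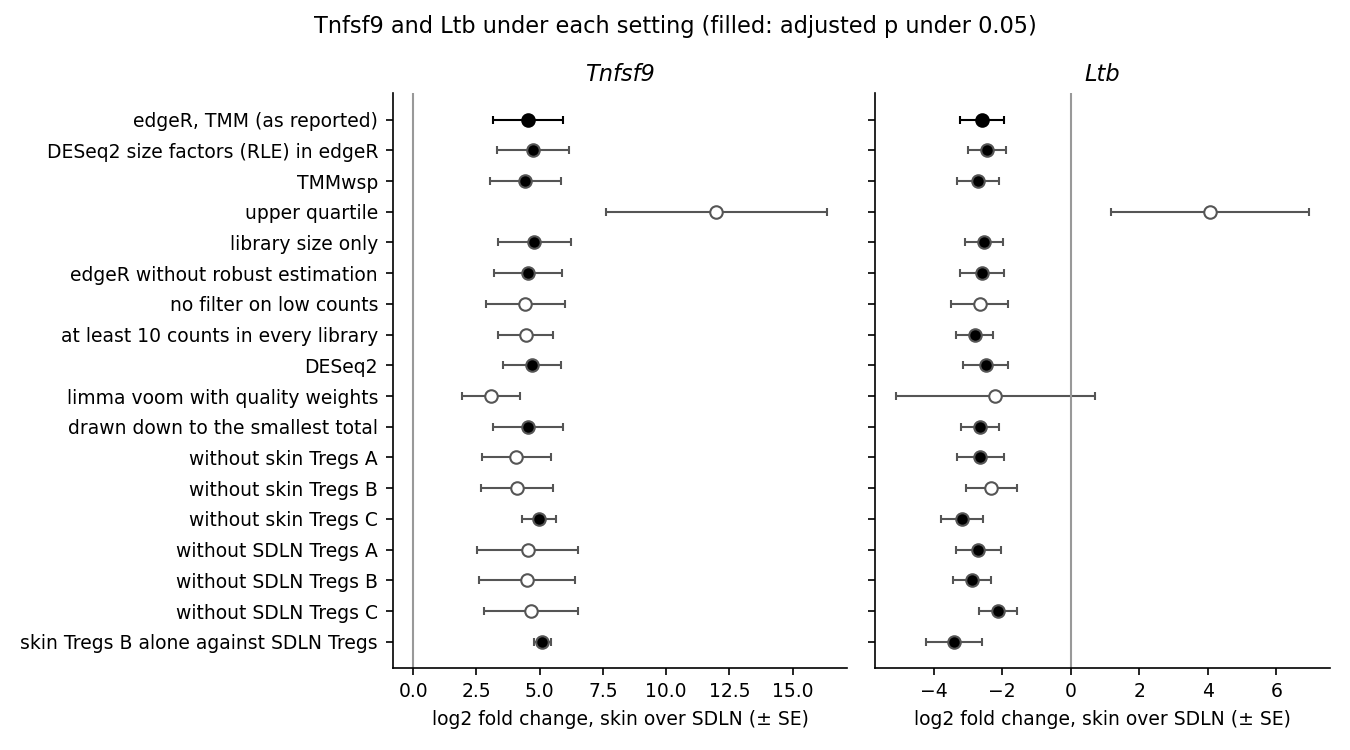
Log2 fold change of Tnfsf9 and Ltb, skin over SDLN, with its SE, in the reported fit (top) and the 17 alternatives, filled where the adjusted p was under 0.05. Tnfsf9 stays above 0 in each of them, at 3.08 to 11.98, and Ltb stays below 0 except with upper quartile scaling, at 4.07.

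Tnf had no count in any skin library and was at 15.4, 23.1 and 8.81 CPM in SDLN A, B and C. Its SDLN mean was 15.8 ± 7.18 CPM (SD, n = 3). Tnf was at least 34.1-fold lower in skin, a bound that covers counting error only and is measured against the mean of the per-library floors, and was called higher in SDLN (adjusted p = 0.00344, edgeR). Lta stood at 0, 0.0852 and 120.4 CPM in the skin libraries, with SDLN values of 63.1, 77.9 and 52.3 CPM. Skin C, with 1088 counts, exceeded every SDLN library, while A had none and B a single count, so the groups overlapped. The log2 fold change of Lta was -0.34 (SE 2.74, adjusted p = 0.974, edgeR), and its sign turned with upper quartile scaling and without skin B. Without skin C it was called higher in SDLN, at a log2 fold change of -10.28.

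Fasl, whose product kills cells that carry the receptor Fas, and Tnfsf14, which encodes LIGHT, a ligand of HVEM and of the lymphotoxin beta receptor, were each found in a single skin library. Skin C held Fasl at 290.5 CPM, from 2624 counts, and skin A and B held none, beside 19.9, 23.4 and 20.7 CPM in SDLN. Skin A held Tnfsf14 at 421 CPM, from 1579 counts, and skin B and C held none, beside 12.6, 18.7 and 12.0 CPM in SDLN. Skin C was also the skin library with Trdc, the delta constant chain of gamma delta T cells, at 0, 0 and 117 CPM, while the other 5 of 6 gamma delta T genes had no count in skin and the list summed to 21.1 to 23.9 CPM in SDLN. Skin A was the skin library with Cma1, a mast cell protease, at 216, 0 and 0 CPM, which made up most of the 226 CPM of the 7 mast cell and granulocyte genes there. Of the rest, Cpa3 had 32 counts and Mcpt4 3 counts in skin A, whereas Kit, the stem cell factor receptor that marks mast cells, had no count in skin against 15.9 ± 8.46 CPM in SDLN (SD, n = 3) and was called higher in SDLN (adjusted p = 0.00351, edgeR). That list summed to 0.0852 and 0 CPM in skin B and C and to 12.3 to 27.1 CPM in SDLN. Of 8 CD8 and NK cell genes, Gzmb and Nkg7 were over the floor in every skin library, 6 had no count in skin, and the list summed to 1112 to 1335 CPM there and 265 to 294 CPM in SDLN. The part of such cells in the Fasl and Tnfsf14 values was not tested. For both ligands the SDLN libraries lay close together, and the skin libraries lay on both sides of them. The log2 fold changes were 2.52 for Fasl (SE 3.25, adjusted p = 0.716) and 2.78 for Tnfsf14 (SE 3.29, adjusted p = 0.677, edgeR), and neither gene was called. Both signs turned without the library that held the gene, skin C for Fasl and skin A for Tnfsf14, and both genes were then called higher in SDLN, at log2 fold changes of -13.08 and -12.54.

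Tnfsf14, whose promoter window lay at chr17:57194182-57194431 on the minus strand, is 39.7 kb from Cd70, which in turn is 38.2 kb from Tnfsf9. Its window is shown because it held 1 of the AP-1 matches, at position -160, in capitals here.

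Tnfsf14: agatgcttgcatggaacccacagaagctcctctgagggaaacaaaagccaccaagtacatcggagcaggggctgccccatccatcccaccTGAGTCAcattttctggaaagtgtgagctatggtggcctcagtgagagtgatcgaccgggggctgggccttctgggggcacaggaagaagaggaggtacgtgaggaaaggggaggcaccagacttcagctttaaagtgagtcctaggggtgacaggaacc

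Cd40lg, Tnfsf10, Tnfsf11 and Tnfsf8 had no count in any skin library and were over the floor in all SDLN libraries. Cd40lg, the T cell signal that helps B cells through CD40, was at 29.6, 38.0 and 15.6 CPM in SDLN A, B and C, and was at least 59.9-fold lower in skin (adjusted p = 0.00351, edgeR). Tnfsf10, which encodes the death ligand TRAIL, was at 60.0, 81.7 and 36.3 CPM in SDLN, and was at least 128-fold lower in skin (adjusted p = 0.00753). The folds of all 4 genes are measured against the floor and cover counting error only. Tnfsf11, which encodes RANKL, the inducer of osteoclasts and of lymph node organisers, was at 34.2, 31.4 and 25.9 CPM in SDLN, and was at least 65.9-fold lower in skin (adjusted p = 0.00334). Tnfsf8, which encodes CD30 ligand, was at 15.7, 17.7 and 10.6 CPM in SDLN, and was at least 31.7-fold lower in skin (adjusted p = 0.00322). These 4 and Tnf were called higher in SDLN in all 16 alternatives that tested them, with the highest adjusted p between 0.0166 and 0.0397.

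A count of 0 in skin was common for genes of these levels. Among genes at 10 to 30 CPM in SDLN, 56.5% of 2680 had no skin library over the floor, against 3 of the 6 ligands at that level, Tnf, Cd40lg and Tnfsf8. Among genes at 30 to 100 CPM, 28.7% of 3649 were, against 2 of 3 ligands, Tnfsf10 and Tnfsf11. None of the 91 genes at 1000 CPM or more was at the floor in skin, and Ltb was the ligand at that level. After every library was drawn down at random to 3748669 counts, SDLN libraries still held 33 to 80 counts of Tnf and 137 to 333 of Tnfsf10. At that total Tnfsf9 had 2224, 1612 and 74 counts in skin and 32 to 58 in SDLN, and it was called (adjusted p = 0.0484, edgeR).

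The 8 members outside the named 10 had no count in skin. Tnfsf13b, which encodes the B cell survival factor BAFF, was at 2.20, 0.371 and 0.826 CPM in SDLN A, B and C and missed the threshold (adjusted p = 0.0501, edgeR), though 7 of the 12 alternatives that tested it called it higher in SDLN (adjusted p 0.00517 to 0.142), with the mean skin floor 2.45-fold below its SDLN mean. Cd70, the ligand of CD27, was at 1.12, 0.179 and 1.91 CPM in SDLN, with the mean skin floor 2.31-fold below its SDLN mean. The count filter left Cd70 out of the reported fit, and of the 7 alternatives that tested it, DESeq2 (adjusted p = 0.0123) and the fit without SDLN B (adjusted p = 0.0159) called it higher in SDLN, with adjusted p up to 0.107 in the others. Both SDLN means lay close to the skin floors. Tnfsf15 had 22 counts in SDLN B alone and Tnfsf18 had 1 count in that library, and Tnfsf4, Tnfsf12, Tnfsf13 and Eda had none in any of the 6. Tnfsf12 and Tnfsf13 share 48.3% and 60.0% of their exon bases with a read-through gene, Tnfsfm13, which also had no count, so reads that fit both could not be assigned to either.

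Levels per kilobase of exon, which allow genes of different length to be compared, placed Ltb first in SDLN at 1444 CPM per kb, followed by Lta at 46.6, Cd40lg at 22.2, Tnfsf11 at 13.6, Tnfsf10 at 11.3, Fasl at 11.0, Tnfsf9 at 9.71, Tnf at 9.64, Tnfsf14 at 7.82 and Tnfsf8 at 3.85 CPM per kb. Ltb and Lta stood apart from their neighbours beyond the spread over libraries, and so did Tnfsf8 at the low end, but neighbours from Cd40lg to Tnfsf14 were not separated beyond theirs. In skin, Tnfsf9 at 266 and Ltb at 246 CPM per kb had means that did not differ beyond their spread, and Tnfsf14 at 76.0, Fasl at 50.0 and Lta at 29.0 CPM per kb were each over the floor in 1 library. As a share of the summed ligand level per kb, Ltb held 38.2 ± 15.2% among skin libraries and 89.3 ± 6.48% among SDLN libraries (SD, n = 3 each). Tnfsf9 held 47.1%, 70.6% and 2.51% in skin A, B and C and 0.475% to 0.887% in SDLN. Skin C differed from A and B in that Fasl held 26.4% and Lta 15.3% of its sum, and skin A in that Tnfsf14 held 23.4%.

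**Figure D3:**
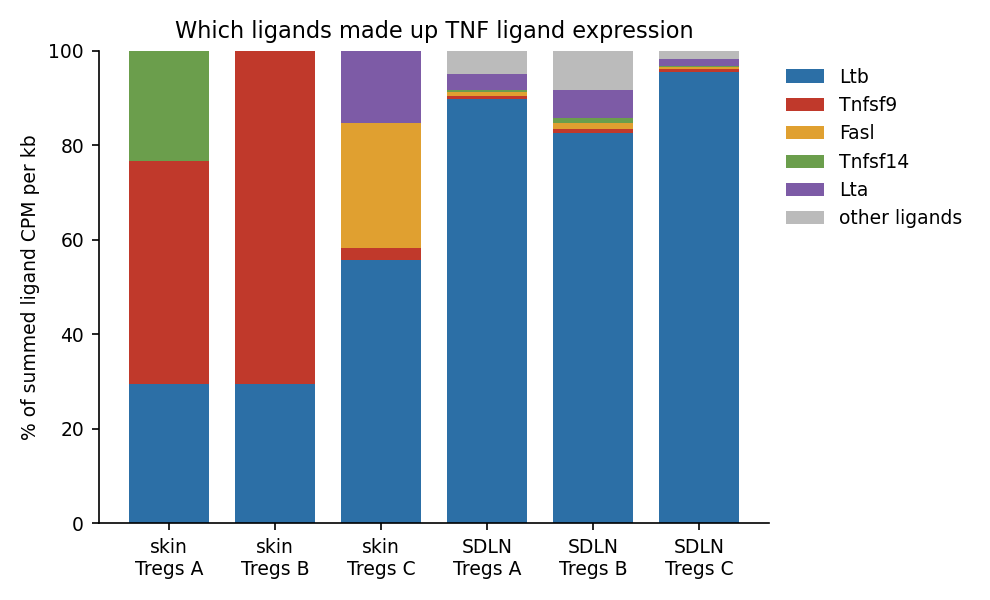
Share of the summed ligand CPM per kilobase of exon (percent) held in each library by Ltb, Tnfsf9, Fasl, Tnfsf14, Lta and the other ligands together, as stacked bars. Ltb takes 82.6 to 95.6% in the SDLN libraries and 29.4 to 55.8% in the skin libraries, where Tnfsf9 takes 2.51 to 70.6%.

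The TNF receptor superfamily was taken as 28 genes, not all of them receptors of these ligands, and 20 were tested. None was called higher in skin by edgeR, beside 1.04% of all genes tested. At an unadjusted p under 0.05, 1 was higher in skin, beside 201 of the 13572 genes tested. DESeq2 and limma voom each called 1 higher in skin, beside 2.27% and 0.936% of all genes. Called higher in SDLN were 11 of the 20, beside 45.3% of all genes tested, and no skin library held any of them over the floor, as with most genes called higher in SDLN. Tnfrsf9, which encodes 4-1BB, the receptor of Tnfsf9, was at 1419, 985 and 302 CPM in the skin libraries, with SDLN values of 411, 481 and 222 CPM. Skin A and B were above all SDLN libraries and skin C was not, and the log2 fold change was 1.13 (SE 0.547, adjusted p = 0.177, edgeR). Tnfrsf10b, the death receptor of TRAIL, was at 239.8, 5.62 and 184 CPM in the skin libraries, with SDLN values of 6.15, 8.50 and 5.08 CPM. Its log2 fold change was 4.38 (SE 1.73, adjusted p = 0.0962). Skin B was within the SDLN range for Tnfrsf10b, and leaving it out gave the call (log2 fold change 4.93, adjusted p = 0.00955). The ligand Tnfsf10 was at 0 in all 3 of these skin libraries.

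Of the receptors for TNF and lymphotoxin, Tnfrsf1b was at 0, 269 and 1.22 CPM in skin and 200 to 508 CPM in SDLN (adjusted p = 0.721, edgeR), and it was called higher in SDLN without skin B (adjusted p = 0.0336) and by limma voom (adjusted p = 0.0342). Tnfrsf1a had no count in skin against 8.09 ± 1.07 CPM in SDLN (SD, n = 3, adjusted p = 0.00322). The mean skin floor lay 17.5-fold below that SDLN mean, a fold that covers counting error only. The lymphotoxin beta receptor, Ltbr, had at most 2 counts in any skin library and 141, 5 and 0 counts in SDLN A, B and C, so its SDLN level rested on 1 library. Fas, the receptor of Fasl, was at 20.8, 0 and 151 CPM in skin and 77.7 to 98.7 CPM in SDLN (adjusted p = 0.971). Tnfrsf8, the receptor of CD30 ligand, had at most 3 counts in any skin library against 27.7 ± 9.04 CPM in SDLN (adjusted p = 0.0142). Tnfrsf14, which encodes HVEM, had no count in skin against 1.68 CPM in SDLN, and Cd40 had none against 0.622 CPM. The mean skin floor lay only 3.64-fold and 1.34-fold below these SDLN means. Tnfrsf4 and Tnfrsf18, which encode OX40 and GITR and whose ligands Tnfsf4 and Tnfsf18 had at most 1 count, overlapped between groups, at 786 to 2381 CPM and 421 to 864 CPM in skin and 1250 to 2903 CPM and 596 to 1086 CPM in SDLN.

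Cd27, the receptor of Cd70, was at 0, 395 and 883 CPM in skin and 418 to 455 CPM in SDLN (adjusted p = 0.981, edgeR). Of the BAFF receptors, Tnfrsf13b was at 0, 139 and 895 CPM in skin and 214 to 286 CPM in SDLN (adjusted p = 0.906), Tnfrsf13c had no count in skin against 13.5 ± 3.32 CPM in SDLN (SD, n = 3, adjusted p = 0.00322), and Tnfrsf17 had none anywhere. For Cd27 and Tnfrsf13b, skin A lay below and skin C above every SDLN library. Tnfrsf25, the receptor of Tnfsf15, had at most 2 counts in any skin library against 115 ± 3.12 CPM in SDLN (adjusted p = 0.0110), and Tnfrsf12a, the receptor of Tnfsf12, had none against 2.21 ± 0.645 CPM (adjusted p = 0.00421). Tnfrsf22 and Tnfrsf23, decoy receptors of TRAIL, had no count in skin against 11.6 ± 2.74 and 1.44 ± 0.934 CPM in SDLN (adjusted p = 0.00322 and 0.0208). The mean skin floor lay only 4.78-fold below the SDLN mean of Tnfrsf12a and 3.11-fold below that of Tnfrsf23. The RANKL receptor Tnfrsf11a had at most 1 count in any library, and its decoy Tnfrsf11b and the Eda receptors Edar and Eda2r had none.

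Of 24 adaptor, regulator and cleavage genes, 23 were tested, 1 was called higher in skin, beside 1.04% of all genes tested, and 6 higher in SDLN, beside 45.3%. Tnfaip3, which encodes A20, a feedback inhibitor of NF-kB, was at 972, 577 and 556 CPM in skin A, B and C and 71.0, 75.5 and 38.9 CPM in SDLN A, B and C. It rose by 3.43 on the log2 scale (SE 0.530, adjusted p = 0.00386, edgeR). All skin libraries were above all SDLN libraries. Rhbdf1 and Rhbdf2, which encode partners of the TNF-shedding protease, had at most 2 counts in any skin library and were called higher in SDLN, at 1.79 ± 1.15 and 8.41 ± 5.99 CPM there (SD, n = 3 each, adjusted p = 0.00837 and 0.0121). Rhbdf1 lay close to the floor, since the mean skin floor was 3.87-fold below its SDLN mean. Its level in SDLN C, 0.720 CPM, was under the floor of skin A, 0.800 CPM. Traf2, an adaptor of TNF receptors, had no count in skin and 142 ± 20.6 CPM in SDLN (adjusted p = 0.0111, edgeR). The mean skin floor lay 307-fold below that SDLN mean, a fold that covers counting error only. Leaving out SDLN A, B or C ended the Traf2 call (adjusted p = 0.0629, 0.0648 and 0.0588). The remaining 3 calls, Traf1, Sppl2b and Adam17, fall outside the rule for named genes and are named after their values were seen, and leaving out any SDLN library ended each of them. Adam17, the protease that releases TNF from the membrane, had 0, 0 and 2 counts in skin A, B and C against 128 ± 23.2 CPM in SDLN. Furin, a convertase that activates ADAM proteases, is also named outside that rule, after its values were seen. It did not overlap between groups, with 147 to 234 CPM in skin and 17.2 to 42.0 CPM in SDLN, but was not called by edgeR (adjusted p = 0.119). Only 3 of the 17 alternatives called it higher in skin, with adjusted p up to 0.499 in the others. These were DESeq2 (adjusted p = 8.56e-06), limma voom (adjusted p = 0.0466) and skin B alone (log2 fold change 2.35).

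**Figure D4:**
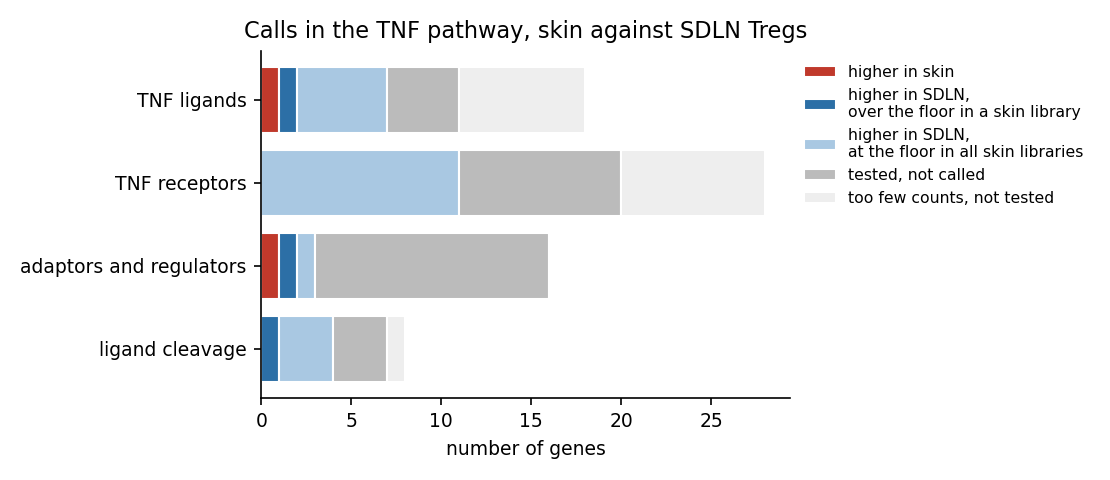
Number of ligand, receptor, adaptor and regulator, and cleavage genes called higher in skin, called higher in SDLN (those at the floor in every skin library in the lighter shade), tested but not called, or not tested (edgeR, adjusted p under 0.05). Calls higher in skin are 1 of 18 ligands, 0 of 28 receptors, 1 of 16 adaptor and regulator genes and 0 of 8 cleavage genes, and 11 receptors are higher in SDLN.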

How the data were processed

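RNA of sorted skin and SDLN Tregs was sequenced in 6 libraries of pooled mice. The deposited values are raw read counts per Ensembl gene, which the authors made with Trimmomatic 0.36, STAR 2.5.2b and featureCounts (Subread 1.5.2) on GRCm38. The annotation release, strand setting and treatment of duplicates are not given in the sources used here. Groups were taken from the sample titles, since the tissue label of the SDLN samples reads skin. Symbols, exon lengths and coordinates came from GENCODE M21 (GRCm38), and sequences from RefSeq (GRCm38.p6). The members and gene lists were chosen with earlier results of these data known.

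CPM were counts per 1000000 of the library total. The comparison used edgeR 4.0.16 (robust quasi-likelihood test, TMM, filterByExpr, R 4.3.3) over all genes of the table, with Benjamini-Hochberg adjustment and a threshold of 0.05, and its script was tested on simulated data. The biological coefficient of variation was 1.43. A gene with 3 counts or fewer was at the floor, and a fold against a group with no count was computed against the mean of the per-library floors. Fitted fold changes of such genes depend on the prior count and are not quoted as bounds. All 18 ligands were described, with the receptors of the described ligands, up to 4 called adaptor or cleavage genes by smallest adjusted p, and the 5 genes most like Tnfsf9 by Pearson r. Alternatives were 4 other scalings, DESeq2 1.42.0, limma voom 3.58.1 with quality weights, no robust estimation, other count filters, equal library totals, each library left out, and skin B alone. A fit with the column letter as a block was added after seeing the data and is given only in the closing section.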

Additional observations from a re-analysis of the deposited data

How the results depend on the processing

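Columns of both groups share the letters A to C, and no source used here says that a letter marks a shared pool of mice. Same-lettered libraries did not deviate together from their group means (r = 0.0460, -0.0099 and 0.0913 over 13572 genes), and skin A and skin B each had their highest r with a library of another letter. A fit with the letter as a replicate block, chosen after seeing the data, called 0 ligands higher in skin and 7 in SDLN, 0 receptors higher in skin and 9 in SDLN, and 1 and 3 adaptor or cleavage genes, beside 0.449% and 41.5% of all genes. In it the log2 fold change was 3.99 for Tnfsf9 (adjusted p = 0.465) and -2.54 for Ltb (adjusted p = 6.97e-07), and it turned sign for Tnfsf14 (-8.21) and Fasl (-8.45).

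Of all genes with an adjusted p, the share called higher in skin and in SDLN was 1.04% and 45.3% as reported, 1.24% and 43.2% with upper quartile scaling, 0.309% and 25.6% with no count filter, 5.80% and 0.645% with a minimum of 10 counts, 2.27% and 42.5% with DESeq2, 0.936% and 53.0% with limma voom, 1.22% and 38.6% at equal library totals, 10.6% and 46.0% with skin B alone, and 0.564 to 2.04% and 40.1 to 48.9% with 1 library left out. The single ligand called higher in skin became 0 with upper quartile scaling, no count filter, a minimum of 10 counts in every library, and limma voom, and 0 to 1 when 1 library was left out. The 6 ligands called higher in SDLN became 1 with the minimum of 10 counts, where 2 ligands were tested, 10 of 13 tested with skin B alone, and 5 to 8 with 1 library left out. The 0 receptors called higher in skin became 1 with DESeq2, 1 with limma voom, 2 with skin B alone, and 0 to 1 with 1 library left out. The 11 receptors called higher in SDLN became 0 with the minimum of 10 counts, which by construction leaves out genes at the floor in skin and left 4 receptors, 6 of 15 tested at equal library totals, and 8 to 12 with 1 library left out. The 1 adaptor or cleavage gene called higher in skin became 0 with upper quartile scaling, 2 with DESeq2, 2 with limma voom, 9 with skin B alone, and 1 to 3 with 1 library left out. The 6 called higher in SDLN became 3 with upper quartile scaling, 0 with the minimum of 10 counts, 10 with limma voom, and 1 (without SDLN A or SDLN B) to 14 (without skin B) with 1 library left out.

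Signs turned for Ltb with upper quartile scaling (4.07), for Lta with upper quartile scaling (0.58) and without skin B (0.24), for Tnfsf14 with limma voom (-4.80), without skin A (-12.54) and with skin B alone (-12.80), and for Fasl with limma voom (-2.03), without skin C (-13.08) and with skin B alone (-13.37), all as log2 fold changes. With 1 library left out, Tnfsf14 ran from -12.54 to 3.34, Lta from -10.28 to 0.24 and Fasl from -13.08 to 3.10. Apart from these and the fewer genes or samples that a filter or a left-out library leaves, the cause was not tested. DESeq2 gave no adjusted p for Fasl and Tnfsf14. With skin B alone, the lone sample is assumed to vary like the SDLN libraries. A count of 0 in skin allows levels above the floor of 3 counts, since Fasl, Tnfsf14 and Lta each had 0 or 1 count in 2 skin libraries and over 1000 in the third.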
